A study of Homo sapiens with 4 samples.

Results

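Notch signalling in these cells was followed through 10 genes, found by symbol among the 18375 genes of the deposited table. They are the receptors NOTCH1, NOTCH2 and NOTCH3, the ligands JAG1, JAG2 and DLL1, the DNA-binding factor RBPJ, and the target genes HES1, HEY1 and HEY2. Each of the 10 had 1 row, and all 10 passed the filter on low values, a normalized count of at least 10 in at least 2 libraries. HEY2 passed it through the resistant libraries alone.

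The cells are RD, an established human rhabdomyosarcoma line that the labels describe as fusion negative. The 2 parental libraries came from untreated RD cells with the genotype label WT. The 2 resistant libraries, with the same genotype label, came from RD cells selected with vincristine, a drug that blocks the mitotic spindle. The first dose, 1 to 1.5 nM, was lethal to 80 to 90% of the cells. Doses then went up by 10 to 20% a step for 9 to 12 months, to a half-maximal inhibitory concentration at least 100-fold above the starting one. The labels do not say whether the resistant cells are a clone, whether the drug was present at harvest, or whether replicates were separate cultures. P-values therefore measure the spread between these libraries only, which may be technical. Poly(A) RNA was sequenced, and 58861281 to 67690557 reads per library could be recovered from the table.

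Notch receptors are membrane proteins that are activated by ligands of the Jagged and Delta-like families on a neighbouring cell. Ligand binding lets a metalloprotease and then gamma-secretase cut the receptor, and the released intracellular domain (NICD) joins RBPJ on DNA, where coactivators of the Mastermind family replace corepressors. HES and HEY genes, which encode basic helix-loop-helix repressors, are the best known direct targets, and in skeletal muscle the pathway is known for keeping satellite cells undifferentiated.

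In resistant cells 4 of the 10 genes were higher (NOTCH1, NOTCH3, HES1 and HEY2) and 6 were lower (NOTCH2, JAG1, JAG2, DLL1, RBPJ and HEY1), in limma's test with Benjamini-Hochberg adjustment over all genes at a threshold of 0.05. Such a call is common in this comparison: 66.9% of the 18330 genes tested were called, 32.7% as higher and 34.2% as lower. The parental and the resistant libraries did not overlap for any of the 10 genes, and did not for 82.1% of all genes either, 41.0% with both resistant libraries above and 41.1% with both below. The largest rise was that of HES1, 3.09-fold between the group means, and the largest fall that of DLL1, to 0.585 of the parental mean. The median log2 fold change of the 10 genes was -0.13 and the median of their absolute changes 0.45, against 0.0043 and 0.36 over all genes tested. In the authors' deposited table an adjusted p below 0.05 with the same sign was listed for 9 of the 10, and the exception was HEY2. When a change above 1.2-fold was required, 4 of the 10 were called against 37.1% of all genes, and with a dispersion of 0.01 assumed between cultures 5 of the 10 against 43.3%.

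**Figure D1:**
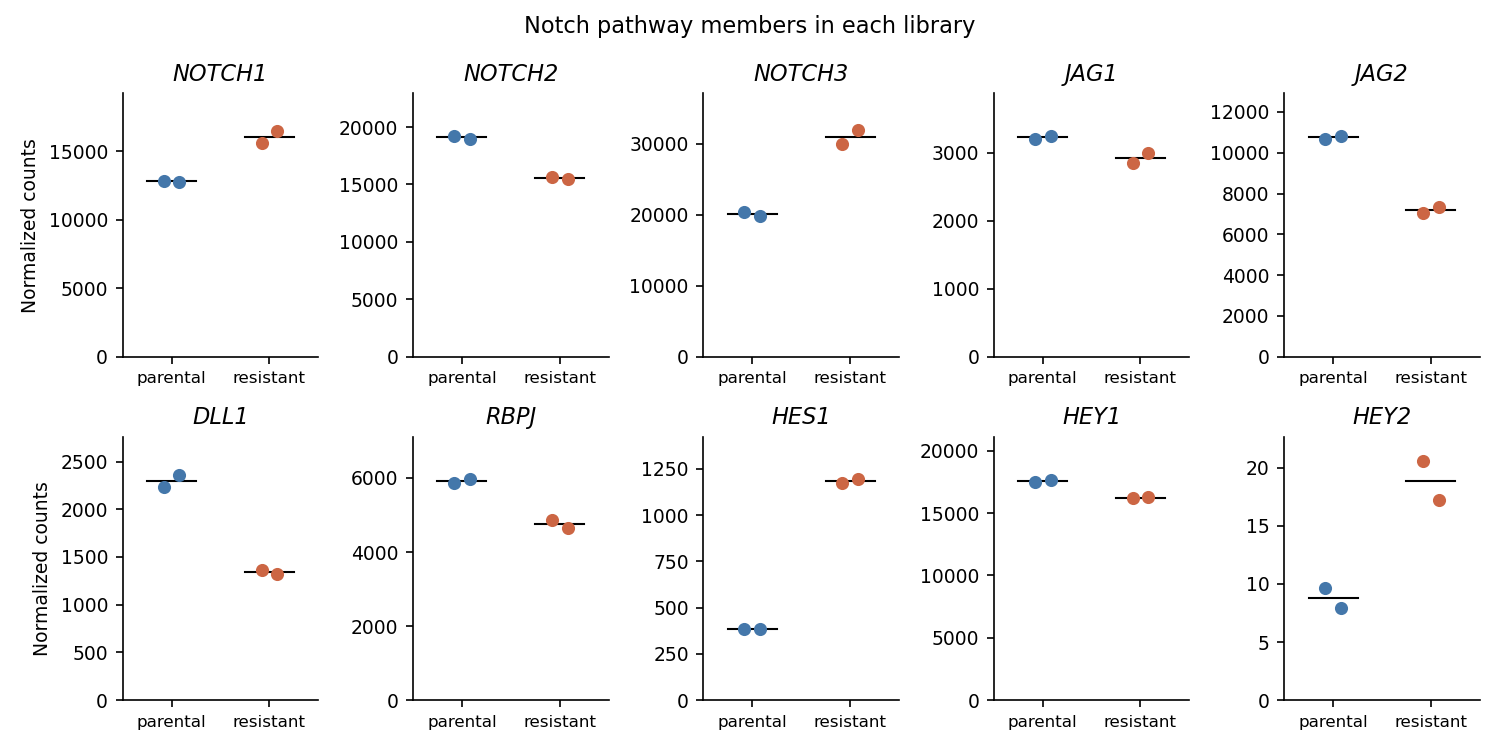
Normalized counts (vertical axes, each from 0) of the 10 Notch genes in the 2 parental and the 2 resistant libraries; points are libraries and black lines are group means. HES1 goes from a mean of 384 to 1185, NOTCH3 from 20134 to 30923 and DLL1 from 2298 to 1344, with no overlap between groups.

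The receptors moved in different directions. NOTCH3, best known as a receptor of vascular smooth muscle and pericytes, had 20408 and 19861 normalized counts in the parental and 29929 and 31917 in the resistant libraries. Both resistant libraries lay above both parental ones by far more than the spread within a group, and the log2 fold change was 0.62 (SE 0.03, limma adjusted p = 8.01e-16). The call of NOTCH3 held in all 17 alternative settings that were run.

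NOTCH1, known from T-cell development and leukaemia, had 12839 and 12783 normalized counts in the parental and 15572 and 16454 in the resistant libraries. The groups did not overlap, with a log2 fold change of 0.32 (SE 0.03, limma adjusted p = 8.41e-10). NOTCH2, known from marginal zone B cells and bile duct development, had 19241 and 18957 in the parental and 15666 and 15513 in the resistant libraries, a log2 fold change of -0.29 (SE 0.03, limma adjusted p = 9.89e-10). The resistant pair thus lay above the parental pair for NOTCH1 and below it for NOTCH2. Neither gene was called against a 1.2-fold change (limma treat adjusted p = 0.0942 for NOTCH1 and 0.327 for NOTCH2), nor with a dispersion of 0.01 assumed between cultures (edgeR adjusted p = 0.0571 and 0.0919). NOTCH2 has near-identical partial copies in the genome, the NOTCH2NL genes, so reads may have been split and its level is uncertain.

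Per kilobase of annotated exon, NOTCH3 was the highest receptor in both groups. Its mean level was 2143 normalized counts per kilobase in parental and 3292 in resistant cells. NOTCH1 followed with 1235 and 1543, and NOTCH2 with 1136 and 928. All annotated exons count towards the length, 16807 bases for NOTCH2 and 10377 for NOTCH1, so this order and the shares below depend on it. Of the summed level of the 3 receptors per kilobase, NOTCH3 took 47.7 and 47.3% in the parental libraries and 56.7 and 57.5% in the resistant libraries. The share of NOTCH2 was 25.1 and 25.2% in the parental and 16.6 and 15.6% in the resistant libraries, while NOTCH1 held between 26.7 and 27.5% in each of the 4. The receptor mix thus held more NOTCH3 and less NOTCH2 in both resistant libraries. An exact two-sided permutation test of 2 libraries against 2 cannot go below p = 0.333, so these shares are given without a test.

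**Figure D2:**
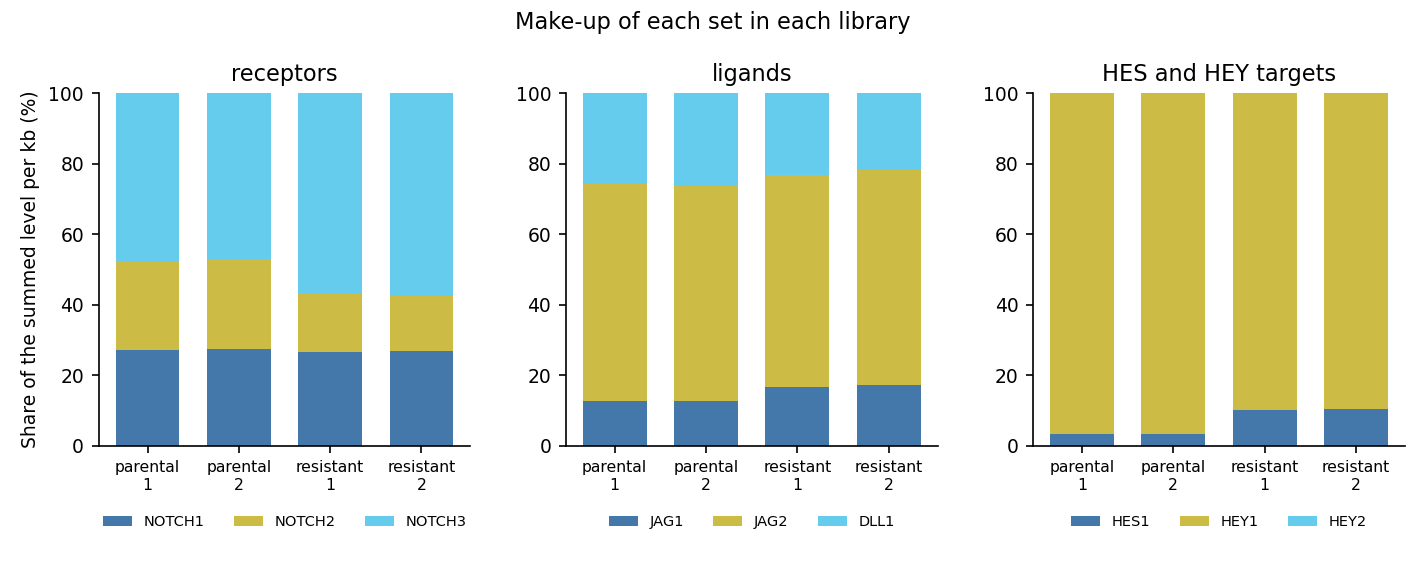
Share (%) of each gene in the summed level per kilobase of its set, in each of the 4 libraries, for receptors, ligands, and HES and HEY targets. NOTCH3 takes 47.3 to 47.7% of the receptors in parental and 56.7 to 57.5% in resistant libraries, and HES1 takes 3.30 to 3.31% of the targets in parental and 10.2 to 10.3% in resistant libraries.

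All 3 ligand genes were lower in resistant cells as measured, although JAG1 turned higher once the shift of its chromosomal neighbours was removed. DLL1, a Delta-like ligand of the embryonic somite and of muscle precursors, had 2236 and 2359 normalized counts in the parental and 1368 and 1320 in the resistant libraries, a log2 fold change of -0.77 (SE 0.05, limma adjusted p = 1.52e-13). JAG2, a Jagged ligand with a role in limb and palate development, had 10684 and 10821 in the parental and 7054 and 7343 in the resistant libraries, a log2 fold change of -0.58 (SE 0.03, limma adjusted p = 1.11e-14). For both genes the resistant libraries lay well below the parental ones, and the calls held in all 17 alternative settings. A transcript on the same strand, AL512356.1, shares 7.33% of the exonic bases of JAG2, so a part of its reads cannot be assigned.

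JAG1, the Jagged ligand that is mutated in Alagille syndrome, had 3207 and 3241 normalized counts in the parental and 2843 and 2995 in the resistant libraries. The groups did not overlap, and the log2 fold change was -0.14 (SE 0.04, limma adjusted p = 0.00353). The call did not hold when a change above 1.2-fold was required (limma treat adjusted p = 1.00), with a dispersion of 0.01 (edgeR adjusted p = 0.465) or without parental replicate 2 (limma adjusted p = 0.0656).

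The order of the ligands by level per kilobase did not differ between the groups. JAG2 was the highest with 1681 normalized counts per kilobase in parental and 1125 in resistant cells, DLL1 followed with 712 and 417, and JAG1 was the lowest with 347 and 314. The summed level of the 3 ligands was 2708 and 2771 per kilobase in the parental and 1832 and 1879 in the resistant libraries. Over the same libraries the summed level of the 3 receptors was 4554 and 4474 in the parental and 5619 and 5906 in the resistant libraries. Resistant libraries therefore held less RNA of these 3 ligands and more of these 3 receptors on this scale, again without a test beyond those of the single genes. Further ligands and receptors of the pathway are not in these sums.

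RBPJ, the factor through which NICD acts on DNA, had 5865 and 5981 normalized counts in the parental and 4870 and 4640 in the resistant libraries, which did not overlap. Its log2 fold change was -0.32 (SE 0.04, limma adjusted p = 1.84e-08). A change above 1.2-fold was not shown (limma treat adjusted p = 0.176), and with a dispersion of 0.01 the call was lost (edgeR adjusted p = 0.0675).

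Among the targets, HES1 rose while HEY1 was slightly lower as measured and turned higher once the shift of its neighbours was removed. HES1, a repressor that keeps many progenitor cells from differentiating, had 383 and 385 normalized counts in the parental and 1174 and 1195 in the resistant libraries. The values of each pair lay within a few percent of each other, and the log2 fold change was 1.62 (SE 0.07, 95% interval 1.48 to 1.77, limma adjusted p = 2.27e-17). A rise of this size or more was seen in 4.57% of all genes tested. The call held in all 17 alternative settings, with log2 fold changes from 1.60 to 1.66.

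HEY1, a repressor of heart and vessel development, had 17503 and 17665 normalized counts in the parental and 16196 and 16261 in the resistant libraries, a log2 fold change of -0.12 (SE 0.03, limma adjusted p = 0.000921). The resistant mean was 0.923 of the parental mean, and the call was lost against 1.2-fold (limma treat adjusted p = 1.00), with a dispersion of 0.01 (edgeR adjusted p = 0.561) and without parental replicate 2 (limma adjusted p = 0.0673). HEY2, a repressor of ventricular heart muscle and vessels, was close to the lowest measured level, with 10 and 8 reads in the parental and 19 and 18 reads in the resistant libraries. The ratio of its reads, corrected for library size, was 2.13 with an exact 95% binomial interval of 1.18 to 3.97, which covers counting error only. Its log2 fold change was 1.02 (SE 0.42, limma adjusted p = 0.0346) and rests on few reads. HEY2 was not called by DESeq2 (adjusted p = 0.191), in the authors' deposited table (adjusted p = 0.192), against 1.2-fold (limma treat adjusted p = 0.109), or by limma without parental replicate 2 (adjusted p = 0.100), resistant replicate 1 (adjusted p = 0.171) or resistant replicate 2 (adjusted p = 0.0663).

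In level per kilobase HEY1 was by far the highest of these 3 targets in both groups. It had 5441 normalized counts per kilobase in parental and 5021 in resistant cells, HES1 had 186 and 574, and HEY2 had 3.21 and 6.88. The summed level of the 3 targets was 5605 and 5655 per kilobase in the parental and 5588 and 5617 in the resistant libraries. This sum was nearly level, while HES1 went from 3.31 and 3.30% of it to 10.2 and 10.3%. It is mostly HEY1 and leaves out other HES and HEY genes. Per kilobase in the group means, HEYL went from 651 to 1809, HES6 from 597 to 1354, HES4 from 691 to 966 and HES7 from 79.5 to 100.

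The region before the start of HES1 is shown because HES1 changed most and because RBPJ is known to bind it. The motif searched was TGGGAA, a form of the core that RBPJ recognises, on both strands, in the 250 bases before each RefSeq start (GRCh38.p14). Beside HES1 stand HEY2 and HEYL, the latter a gene of the HEY family that rose by 1.47 on the log2 scale (SE 0.04, limma adjusted p = 3.05e-22). HEYL was put here after its value was seen. Capitals mark each match, as TGGGAA where the strand shown holds it and as TTCCCA where the other strand does.
HES1: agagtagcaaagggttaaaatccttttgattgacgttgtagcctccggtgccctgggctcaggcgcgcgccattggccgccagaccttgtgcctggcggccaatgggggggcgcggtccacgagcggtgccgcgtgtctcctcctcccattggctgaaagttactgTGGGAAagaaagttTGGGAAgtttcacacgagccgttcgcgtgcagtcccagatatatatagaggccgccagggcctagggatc
HEYL: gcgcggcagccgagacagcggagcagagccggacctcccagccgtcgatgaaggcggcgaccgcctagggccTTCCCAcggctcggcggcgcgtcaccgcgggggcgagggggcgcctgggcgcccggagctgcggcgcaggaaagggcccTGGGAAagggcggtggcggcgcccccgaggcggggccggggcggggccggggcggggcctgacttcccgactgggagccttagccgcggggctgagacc
HEY2: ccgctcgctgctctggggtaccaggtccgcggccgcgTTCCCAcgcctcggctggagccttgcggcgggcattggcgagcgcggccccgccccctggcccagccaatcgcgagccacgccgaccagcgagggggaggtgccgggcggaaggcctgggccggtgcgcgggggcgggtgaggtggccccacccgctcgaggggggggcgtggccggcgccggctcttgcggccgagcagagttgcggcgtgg

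These windows are chr3:194135898-194136147 on the plus strand for HES1, chr1:39639644-39639893 on the minus strand for HEYL and chr6:125749382-125749631 on the plus strand for HEY2. The HES1 window held 2 matches in the same orientation, which begin 84 and 70 bases before the start, 14 bases apart. HEYL held 2 matches in opposite orientations, and HEY2 held 1. The other genes searched were further HES family genes and NRARP, all called higher, HES7 not once its neighbour median was removed. Of these, HES4 held 1 match and HES6, HES7 and NRARP held 0. Genes of the list of further targets below that fell or were not called were not searched, so this set is not an unselected one. Of 35116 RefSeq promoter windows of the same length, 20.8% held at least 1 match, 2.90% at least 2, and 1.70% at least 2 in 1 orientation. Windows were searched for 8 of the 10 Notch genes, and 3 of the 8 had a match. RBPJ was the third, at 1 of its 5 listed starts, and the windows of NOTCH1, NOTCH2, NOTCH3, JAG1 and JAG2 did not hold these letters. DLL1 and HEY1 were not searched here. A match says only that the letters are present. Other forms of the RBPJ site were not searched, so the number and orientation of matches are not those of RBPJ sites.

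Chromosomal neighbours moved with some of the genes. For each gene the median log2 fold change of the 10 tested genes on either side was taken as the shift of its neighbourhood. JAG1 lies on chromosome 20 from 10637684 to 10673999, and its 20 neighbours, between 6074845 and 16864148, had a median of -0.77, with 15 of them called lower and 1 called higher. JAG1 fell by only 0.14, so with the neighbour median removed its value was 0.62 (limma adjusted p = 5.25e-13), the reverse of the measured direction. HEY1, on chromosome 8 from 79764010 to 79767863, had neighbours with a median of -0.25, and its value turned to 0.14 (limma adjusted p = 0.000201). These p-values take the neighbour median as known, and the part of the neighbourhood in either change was not tested.

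NOTCH3, on chromosome 19 from 15159038 to 15200981, rose among neighbours of which 15 of 20 were called lower (median -0.35), and stood at 0.97 with that median removed. NOTCH2, on chromosome 1 from 119911553 to 120069626, was lower among neighbours with a median of 0.27, and stood at -0.56. For RBPJ, on chromosome 4 from 26163455 to 26435131, the neighbour median was -0.22, which left -0.09 (limma adjusted p = 0.0271). The changes of HES1, NOTCH1, HEY2, JAG2 and DLL1 lay among neighbour medians between -0.18 and 0.026. HES1, on chromosome 3 from 194136145 to 194138732, kept 1.60 of its 1.62, and DLL1 and JAG2 kept -0.59 and -0.43. DLL1 lies near the end of chromosome 6 (170282206 to 170306565) and had 14 neighbours. JAG2 lies on chromosome 14 (105140981 to 105168824), NOTCH1 on chromosome 9 (136494433 to 136545786) and HEY2 on chromosome 6 (125747664 to 125761269), all in GRCh38 coordinates of GENCODE 29, where all 10 are protein-coding.

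**Figure D3:**
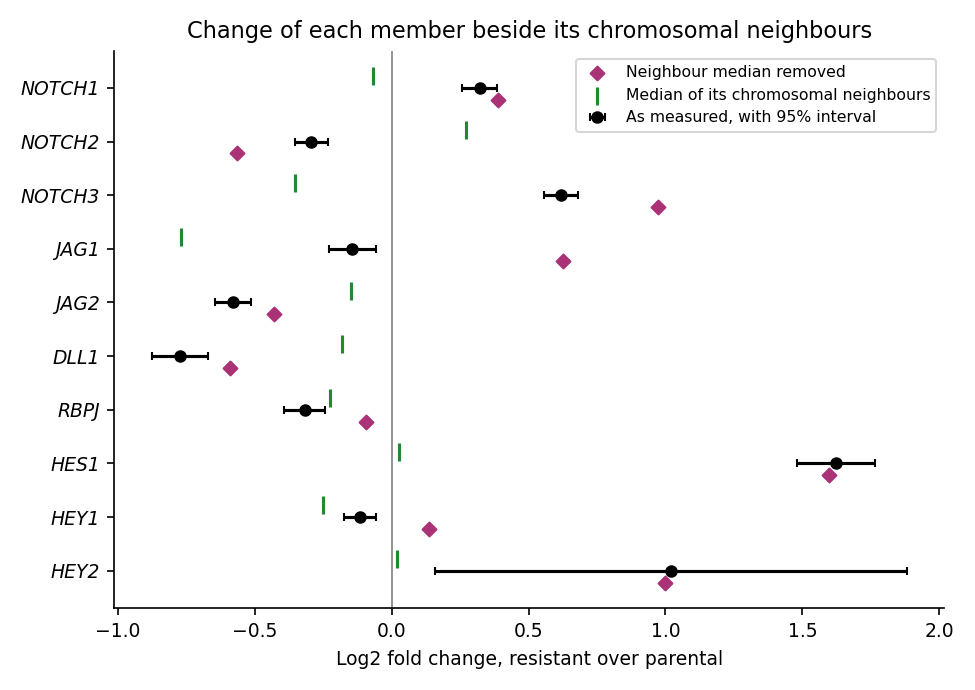
Log2 fold change of each Notch gene, resistant over parental (horizontal axis): black points with 95% intervals as measured, green bars the median of the neighbouring genes, purple diamonds the value with that median removed. JAG1 (-0.14 measured, 0.62 after removal) and HEY1 (-0.12 and 0.14) cross zero, while the other 8 genes keep their side of zero.

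The rest of the pathway was described with 8 lists by role, 71 genes in all, of which 69 were tested. Of these, 28 were higher, 25 were lower and 16 were not called, so 76.8% were called against 66.9% of all genes. Scaling the libraries to the same total or by TMM moved no list by more than 1 call in either direction. Other settings moved some lists further, and those are given beside the counts. Neighbour medians are given for some of the named genes only, and others had such shifts as well. Each count by list stands against 32.7% of all genes tested called higher and 34.2% called lower. Against a 1.2-fold change these shares were 18.4 and 18.6%. With a dispersion of 0.01, 43.3% of all genes were called in either direction. No test sets any list against other genes.

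Further target genes were called in both directions. Of 12 tested genes of the HES and HEY family and other known targets, 8 rose, 3 fell and 1 was not called, where 32.7% of all genes tested were called higher and 34.2% lower. The median of the 12 was 0.45, and no test sets the list against other genes. HEYL had 2403 and 2367 normalized counts in the parental and 6659 and 6586 in the resistant libraries. HES6, which encodes an antagonist of HES1 that promotes differentiation, had 1196 and 1237 in the parental and 2708 and 2807 in the resistant libraries, a log2 fold change of 1.18 (SE 0.05). The other genes of this list that were called are named after their values were seen. HES4 rose by 0.49 (SE 0.07) and HES7 by 0.33 (SE 0.13), a call that HES7 lost with the neighbour median removed (limma adjusted p = 0.276), and HES2 and HES5 were not analysed here. NRARP, a feedback inhibitor of NICD that is a direct target, rose by 0.82 (SE 0.07), and MYC and the cyclin gene CCND1 by 0.45 each (SE 0.03). MYC lay among neighbours with a median of 0.36, and stood at 0.09 with that median removed. CCND1 stood at 0.59 after the same removal. The fallers beside SOX9 were ID3, an inhibitor of basic helix-loop-helix factors, with a log2 fold change of -0.60 (SE 0.03), and CCND3, with -0.18 (SE 0.03).

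CDKN1A, the p21 gene, rose by 0.89 (SE 0.04), and SOX9, a cartilage and progenitor factor, fell from a mean of 5603 ± 82.3 to 993 ± 91.3 normalized counts (SD, n = 2 libraries each), in a neighbourhood with a median of -1.35. Per kilobase HEYL went from 651 to 1809 normalized counts, above HES1 (186 and 574) and below HEY1 (5441 and 5021) in both groups. Of the HES and HEY genes tested, HEY1 was thus the highest in both groups and the only one called lower, a direction that neighbour removal turned.

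Ligand-side genes split. Among 6 further ligands and receptors 2 rose, 1 fell and 3 were not called (median 0.18). DLL3, a Delta-like protein that does not activate receptors on other cells, fell by 0.81 (SE 0.08). DLK1, a non-canonical ligand and an imprinted gene, had 7 and 13 reads in the parental and 85 and 92 reads in the resistant libraries, a log2 fold change of 3.13 (SE 0.31), and DLK2 rose by 0.46 (SE 0.10). NOTCH4, the fourth receptor, had 34.8 and 45.3 normalized counts in the group means and was not called (limma adjusted p = 0.203).

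Of 4 E3 ligase genes whose products drive ligand endocytosis, 2 rose and 2 fell (median 0.92). NEURL1B had 446 ± 12.7 normalized counts in parental and 1822 ± 106 in resistant cells (SD, n = 2 libraries each), a log2 fold change of 2.03 (SE 0.06). NEURL1 rose by 1.93 (SE 0.15). MIB2 fell by 0.49 (SE 0.05) among neighbours with a median of -0.38, and stood at -0.12 with that median removed. MIB1 had a log2 fold change of -0.08 (SE 0.04, limma adjusted p = 0.0489). That call was lost with scaling to the same total or by TMM, and with the neighbour median removed (limma adjusted p = 0.158).

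Genes that modify or cut the receptor split as well. LFNG, the Lunatic fringe glycosyltransferase that shifts receptors towards Delta-like ligands, had 594 ± 7.70 normalized counts in parental and 1461 ± 46.3 in resistant cells (SD over 2 libraries), a log2 fold change of 1.30 (SE 0.06). Of the other glycosylation genes POFUT1, the O-fucosyltransferase, fell by 0.14 (SE 0.03) among neighbours with a median of -0.40, and turned to 0.26 with that median removed. MFNG, RFNG and POGLUT1 were not called (median of the 5 genes -0.13), POGLUT1 named after its value was seen. Of 9 genes for receptor cleavage 2 rose and 6 fell (median -0.16), but the split was 2 and 2 against a 1.2-fold change, 2 and 3 with a dispersion of 0.01, and 4 and 3 with neighbour medians removed. The gamma-secretase subunit gene NCSTN rose by 0.68 (SE 0.03) and the protease gene ADAM10 by 0.45 (SE 0.04). With neighbour medians removed, NCSTN stood at 0.48 and ADAM10 at 0.21. Other gamma-secretase subunits, APH1B and PSENEN, had log2 fold changes of -0.87 (SE 0.06) and -0.65 (SE 0.05), PSENEN among neighbours with a median of -0.56, without which it was not called (limma adjusted p = 0.102).

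At the level of the RBPJ complex, 4 of 8 coactivator genes rose (median 0.15), where 32.7% of all genes tested were called higher. None was called lower, where 34.2% of all genes were, although 1 was with neighbour medians removed. The Mastermind genes MAML1 and MAML2 rose by 0.23 (SE 0.04) and 0.37 (SE 0.04), and MAML3, at a mean of 13.3 and 35.4 normalized counts, by 1.33 (SE 0.37). KAT2A, a histone acetyltransferase gene, rose by 1.08 (SE 0.04) among neighbours with a median of 0.75. Of 14 corepressor genes 5 rose and 6 fell (median -0.05), against 1 and 3 for a change above 1.2-fold, 1 and 4 with a dispersion of 0.01, and 3 and 7 with neighbour medians removed. TLE3, a Groucho-type corepressor used by HES proteins, rose by 0.96 (SE 0.04), and TLE4, a protein of the same family, fell by 0.44 (SE 0.03). L3MBTL3, which binds RBPJ and represses its targets, fell by 0.80 (SE 0.05), and CTBP1 fell by 0.52 (SE 0.03).

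Among 11 genes of receptor and NICD turnover 4 rose and 6 fell (median -0.18), against 3 and 4 for a change above 1.2-fold or with a dispersion of 0.01, and 4 and 4 with neighbour medians removed. DTX4, a Deltex-family E3 ligase gene, had 96.5 ± 9.88 normalized counts in parental and 798 ± 16.1 in resistant cells (SD over 2 libraries), a log2 fold change of 3.04 (SE 0.11). DTX3L rose by 0.73 (SE 0.04). NUMBL, a relative of the Notch inhibitor NUMB, fell by 0.71 (SE 0.04) among neighbours with a median of -0.40, and stood at -0.31 with that median removed. The E3 ligase gene ITCH fell by 0.35 (SE 0.04) among neighbours with a median of -0.52, and turned to 0.17 with that median removed.

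**Figure D4:**
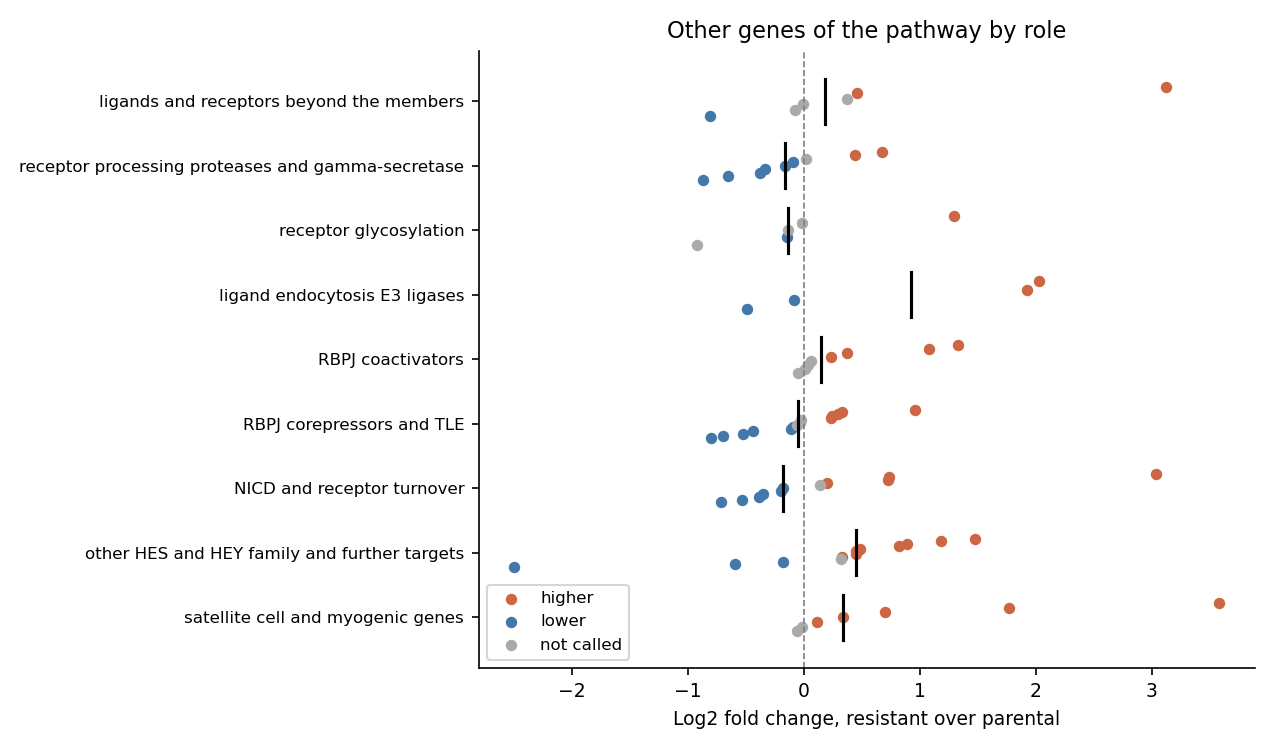
Log2 fold change, resistant over parental (horizontal axis), of other Notch pathway genes and of satellite cell and myogenic genes, by list; points are genes coloured by call, black bars are list medians and the dashed line is the median of all genes tested. Further targets have a median of 0.45 with SOX9 far to the left, and DLK1, DTX4 and PAX7 lie above 3.

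The labelled cell type was checked with marker genes. Of 6 muscle markers 5 were measured, and their summed level was 86227 to 86588 normalized counts in the parental and 140657 to 144638 in the resistant libraries. Of the 5, 4 were called higher, where 32.7% of all genes were. In the group means CHRNA1 went from 37826 to 56412 and DES from 18250 to 50278. The log2 fold change of CHRNA1, 0.58, was 0.17 with its neighbour median removed. MYOD1, named after its values were seen, had 16588 and 15949 and was not called. Endothelial markers, of interest because vessels express NOTCH3, HEY1 and HEYL, were represented by TEK alone of 6 (188 to 210 in the parental, 1690 to 1729 in the resistant libraries), and PECAM1, CDH5, VWF, KDR and ERG were not analysed here. Of 6 leukocyte markers 2 were measured, with a sum of 49.7 to 53.2 and 41.1 to 57.3. Of 6 pericyte and fibroblast markers 5 were measured, with a sum of 6055 to 6192 and 3815 to 3842. RGS5 and PDGFRB rose by 3.19 (SE 0.12) and 1.16 (SE 0.07), and CSPG4 fell by 1.54 (SE 0.04). The 6 epithelial markers summed to 4825 to 4849 and 14758 to 14947, of which KRT18 made up the most, from 4427 to 13883 in the group means. CDH1, the epithelial cadherin gene, rose from a mean of 8.85 to 21.1 normalized counts, and EPCAM, named after its values were seen, had 58.8 and 68.6 and was not called. The part of these markers in the changes of Notch genes was not tested, and in such bulk RNA fewer cells with a transcript and less of it per cell cannot be told apart.

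The genes whose pattern over the 4 libraries was nearest to that of HES1, by Euclidean distance of centred log2 values, were TLL2 (distance 0.025), SMOC1 (0.027) and SP8 (0.029). Their log2 fold changes were 1.64, 1.64 and 1.63. SP8 had 9.67 and 9.94 normalized counts in the parental and 32.5 and 32.5 in the resistant libraries. It passed the filter on low values through the resistant libraries alone. With 2 libraries in each group this likeness says little beyond an equal fold change.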

How the data were processed

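Poly(A) RNA of 2 parental and 2 vincristine-resistant RD libraries was analysed, grouped by sample title. STAR 2.5.2b, featureCounts of Subread 1.5.2, DESeq2, bcl2fastq 2.17 and the build GRCh38 are named in the submitters' processing notes. No annotation or strand setting is given there. Per library the authors deposited a signal of normalized counts, gene counts divided by one size factor, as the values show: 100% were whole multiples of one step per library, within 0.01. The deposited log2 fold changes and p-values are the authors' own.

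Log2 of the value plus 1 was fitted with limma 3.58.1 (eBayes with trend, group alone), for genes with at least 10 in at least 2 libraries. Among the named genes, HEY2, DLK1, MAML3, CDH1 and SP8 had fewer than 2 parental libraries at that minimum. They passed only because of the resistant libraries, where they were higher. Fold changes are on that scale, which can understate changes of low genes. P-values were Benjamini-Hochberg adjusted over all genes. Alternatives used edgeR 4.0.16, DESeq2 1.42.0 and limma-voom on recovered reads, other scalings, pseudocounts and filters, a replicate block, treat against 1.2-fold, a dispersion fixed at 0.01, neighbour medians removed, and each library left out (R 4.3.3). The fit was also run on simulated counts with a spread as small as that between these libraries. That run cannot show how calls would hold between separate cultures. Levels per kilobase used all annotated exons of a gene in GENCODE 29, which holds 96.9% of the identifiers. Orders and shares of genes on that scale depend on these lengths. Promoters are RefSeq's, and no entry was found for DLL1.

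The genes, lists and tests were chosen with earlier results of these data known. Beside the 10 genes, the text names up to 4 genes per list with the smallest adjusted p, the most abundant marker of each cell type, and the 3 genes nearest in pattern to the member that changed most; others are marked as named after their values were seen.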

Additional observations from a re-analysis of the deposited data

How the results depend on the processing

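NOTCH3, HES1, JAG2 and DLL1 kept direction and call in all 17 alternatives. The 4 higher and 6 lower calls among the Notch genes became 2 and 2 when a change above 1.2-fold was required and 3 and 2 with a dispersion fixed at 0.01. Over all genes 3380 were then called higher and 3414 lower against 1.2-fold, and 4063 higher and 3880 lower with the fixed dispersion, in place of 6001 and 6270. These settings ask for a larger change or assume a larger spread by construction. Leaving out each library in turn gave 3 to 4 higher and 4 to 6 lower Notch genes, and 5298 to 5861 higher and 5483 to 6331 lower genes in all. With neighbour medians removed, JAG1 (0.62) and HEY1 (0.14) reversed, and the cause was not tested. A minimum of 50 leaves out HEY2. Same-numbered replicates of both groups did not deviate together (correlation -0.030 over genes), and the replicate block gave 5926 higher and 6218 lower genes and changed no call of a Notch gene. Reads limit HEY2 alone among the Notch genes, since the next lowest, HES1, had at least 387 reads in a library.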

Other observations

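Satellite cell and myogenic genes were read as a list of their own. Of 7 tested, 5 rose, where 32.7% of all genes tested were called higher and 66.9% in either direction, none was called lower and 2 (MYOD1 and MEF2C, named after their values were seen) were not called, with a median log2 fold change of 0.34. No test sets the list against other genes. COL5A3, a collagen V gene that is a known Notch target in mouse satellite cells, had 1880 ± 4.47 normalized counts in parental and 6426 ± 23.5 in resistant cells (SD, n = 2 libraries each), a log2 fold change of 1.77 (SE 0.04). COL5A1, of the same collagen and named after its value was seen, rose by 0.12 (SE 0.03). MEGF10, a satellite cell receptor that interacts with Notch1, rose by 0.34 (SE 0.03). PAX7, the satellite cell factor, rose by 3.58 (SE 0.05) and MYOG, a factor of differentiation that Notch is known to hold down, by 0.70 (SE 0.03). MYF5 and CALCR were not analysed here.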
